A study of Homo sapiens with 20 samples.

Results

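The response to doxycycline (Dox) that was shared by stable EHMT1 lines was examined in LNCaP cells, an androgen-sensitive human prostate adenocarcinoma line. Of the 20 samples in the series, the 16 that belong to the stable lines were used. They form 8 conditions, in which each of 4 lines was either left untreated (Veh) or given 0.25 µg/mL Dox for 2 days. Every line carries a Dox-regulated, V5-tagged EHMT1 open reading frame, which is the wild-type form (WT), a form with the lysine K450 or its neighbour K451 replaced by arginine (K450R, K451R), or the double mutant (K450RK451R). Each construct is represented by 1 stable line, and a Dox-treated line without an EHMT1 insert was not analysed here, so an effect of the drug and an effect of the induced EHMT1 cannot be told apart. The 2 columns of a condition differed by no more than counting noise (chi-square per degree of freedom of 0.995 to 1.02) and were added to give 8 libraries of 8436791 to 12407739 counts. The lines were then the only replicates of the Dox effect, and because they express different forms of EHMT1 they are not repeats of one experiment.

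EHMT1, also called GLP, is a SET-domain lysine methyltransferase that works together with G9a (EHMT2). Its best known product is the methylated H3K9 found over silent genes in euchromatin. Doxycycline is an antibiotic of the tetracycline class that is used to switch on genes placed under a tet-regulated promoter. It can also impair translation on mitochondrial ribosomes, which resemble those of bacteria. Library preparation started from total RNA and kept strand information, so that abundant RNAs without a poly(A) tail were counted beside messenger RNA.

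The exchanged residues lie in a stretch rich in basic codons, which is shown because it defines the 4 lines. In the reference transcript EHMT1-203, whose coding sequence has 1298 codons, lysines K450 and K451 are encoded in exon 8 at chr9:140648722-140648727 (GRCh37, plus strand). The 60 coding bases around them run across the junction to the next exon, and the codons of the pair are in capitals. The bases used in the expression constructs to make arginine were not given in the sources used here.
EHMT1 codons K450 and K451: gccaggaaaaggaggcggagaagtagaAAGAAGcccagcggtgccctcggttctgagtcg

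EHMT1 rose in every line. Its level in CPM, the read count scaled to the TMM-adjusted size of the library, was 76.3 in WT, 84.2 in K450R, 71.7 in K451R and 88.9 in K450RK451R without Dox. With Dox it reached 797, 842, 725 and 663 CPM in the same order. No Veh library came near a Dox library, and the fitted log2 fold change was 3.23 ± 0.07 (SE, n = 4 lines, edgeR adjusted p = 1.06e-22). Here and below, the SE comes from the edgeR fit, whose variance is moderated over genes. It is not the spread of the line values, whose standard deviation for EHMT1 was 0.23. The reads of the inserted coding sequence and of the cell's own gene were counted together.

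Beyond EHMT1 the changes that passed the test were small in size and mostly falls. Of 14105 genes tested, 286 (2.03%) had an adjusted p under 0.05 in edgeR's quasi-likelihood test with the line as a block. Of these, 78 genes were higher (0.553%) and 208 were lower (1.47%) with Dox. The median log2 fold change was 0.42 for the genes that rose and -0.38 for those that fell. A change of at least 1 on the log2 scale was seen for 3 genes that rose and 8 that fell. EHMT1 is included in these counts and in the 286. An unadjusted p under 0.05 was found for 1998 genes (14.2%). The excess of falls was limited to genes that passed: over all genes tested, 1510 rose and 1430 fell in all 4 lines. The 286 genes had a median mean count of 674, against 194 for all genes tested. The TMM factor was higher with Dox in 4 of 4 lines, and upper-quartile scaling gave 96 higher and 179 lower genes. The number of genes depended on the fit: DESeq2 called 137, a fit without the line block called 4, and leaving out 1 line gave 472 genes without WT, 114 without K450R, 97 without K451R and 193 without K450RK451R.

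Direction was compared line by line on log2 CPM values. Of the 286 genes, 256 moved the same way in all 4 lines, with 74 higher and 182 lower, against 2940 (20.8%) of all genes tested (10.7% higher and 10.1% lower). The Dox and Veh libraries did not overlap for 31 genes that rose and 60 that fell, whereas over all genes tested 2.27% had every Dox library above every Veh library and 2.32% had every one below. These counts read the same libraries as the test and are no separate support for it. Among the 30 others, WT was the single line against the rest for 22 genes. WT also had the smallest change for 131 of the 256 genes. The median change of the genes that fell in every line was -0.29 in WT, -0.38 in K450R, -0.45 in K451R and -0.38 in K450RK451R. A change of at least 0.3 on the log2 scale in each of the lines was reached by 21 genes that rose and 34 that fell, while over all genes tested it was reached by 95 upward and 88 downward. Besides genes described later, those that rose included CCDC71 (0.61) and the chemokine scavenger receptor ACKR3 (0.46). Those that fell included UAP1L1 (-0.57), ETNK2 (-0.64), an ethanolamine kinase, SAFB2 (-0.56), a nuclear matrix protein, and ID2 (-0.54), an inhibitor of basic helix-loop-helix factors. When each line in turn was left out of the fit, 67 of the 286 genes passed in every fit, of which 62 had 1 direction in all lines (11 higher and 51 lower). Across all 14105 genes the changes of any line pair correlated with Pearson's r of 0.03 to 0.20, and across the 3551 genes whose mean count reached 500 with r of 0.21 to 0.59. These are descriptions over genes, which are not independent of each other.

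**Figure D1:**
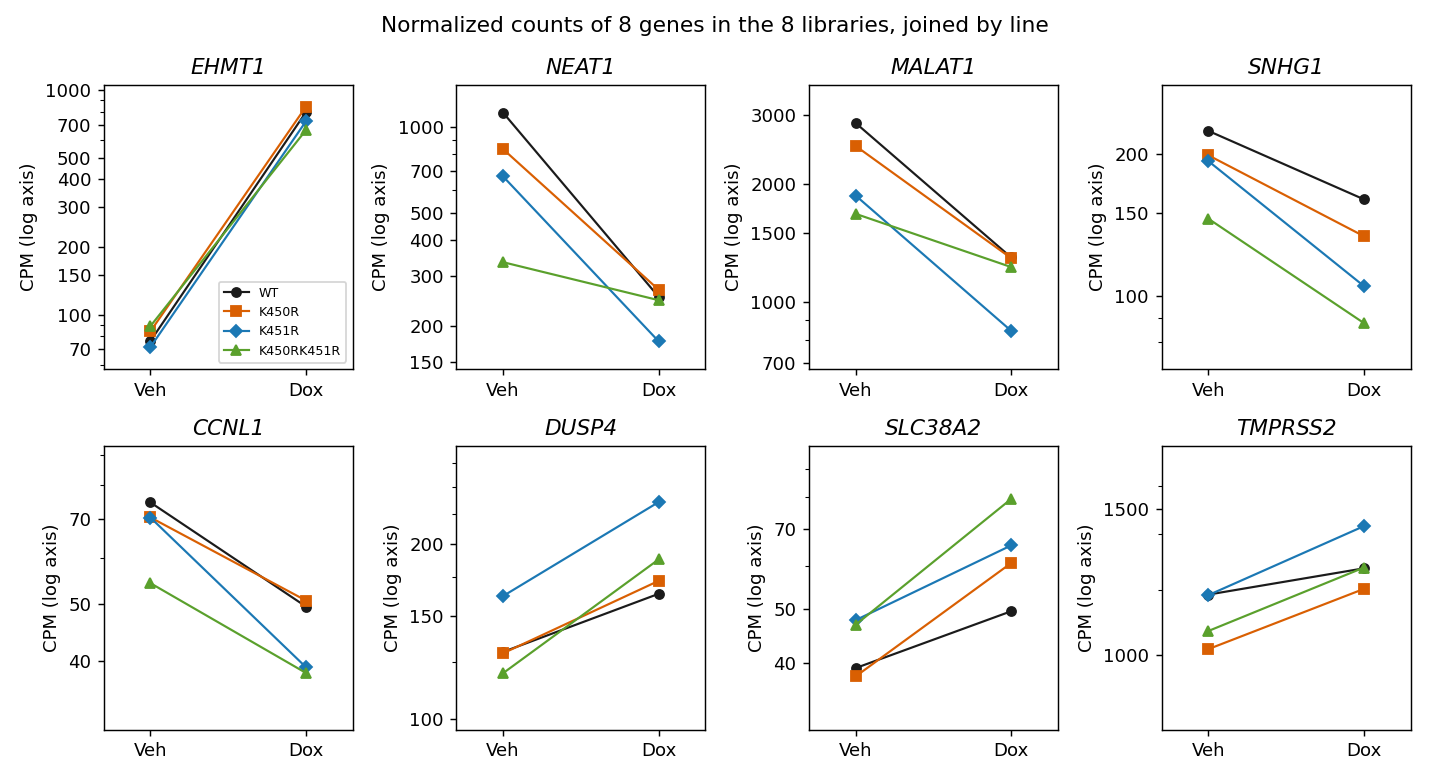
CPM (log axis) of 8 genes in the 8 libraries, with 1 marker and colour per line and a line joining Veh to Dox. EHMT1, DUSP4, SLC38A2 and TMPRSS2 rise in all 4 lines, and NEAT1, MALAT1, SNHG1 and CCNL1 fall in all 4, with the smallest fall of NEAT1 in K450RK451R.

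Among abundant transcripts, NEAT1 and MALAT1, noncoding RNAs that stay in the nucleus, fell in all 4 lines. By fitted size, ENO1-IT1 (-1.62) fell more than NEAT1, and ANO9 (-1.16), SNORD116-19 (-1.08), EIF4A1 (-1.08), HILPDA (-0.95) and RP11-191L9.4 fell more than MALAT1. NEAT1 is the RNA scaffold of paraspeckles and lies at chr11:65190245-65213011. It was counted at 1122 CPM in WT, 836 in K450R, 670 in K451R and 335 in K450RK451R without Dox, and at 253, 268, 177 and 247 CPM with Dox. All Dox libraries were below all Veh libraries, although the untreated K450RK451R library was already low. The log2 fold change was -1.55 ± 0.14 (SE, n = 4 lines, edgeR adjusted p = 1.07e-07), with line values of -2.15, -1.64, -1.92 and -0.44. These line values had a standard deviation of 0.76, which the SE of the fit does not express. In bulk RNA, fewer cells with the transcript and less of it per cell cannot be told apart.

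MALAT1, a speckle-associated RNA encoded nearby at chr11:65265111-65275544, also fell in every line. Its Veh levels were 2858, 2499, 1868 and 1679 CPM (WT, K450R, K451R and K450RK451R), and its Dox levels were 1300, 1294, 845 and 1229 CPM. The groups again did not overlap, and the log2 fold change was -0.92 ± 0.08 (SE, n = 4 lines, edgeR adjusted p = 1.45e-08). NEAT1 and MALAT1 together made up 0.200% to 0.380% of the counts without Dox and 0.108% to 0.161% with it. This share was lower with Dox in 4 of 4 lines, for which the exact sign-flip test over lines gives p = 0.125 (two-sided), the smallest value that 4 pairs allow.

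SNHG1 and SNHG12 are spliced RNAs whose introns carry small nucleolar RNAs. SNHG1 was at 223, 198, 193 and 146 CPM without Dox and at 160, 134, 105 and 87.8 CPM with it. Each line fell, by a log2 fold change of -0.66 ± 0.06 (SE, n = 4 lines, edgeR adjusted p = 1.75e-07), but the lines differed enough in level for the groups to overlap. SNHG12 fell by 0.52 on the log2 scale (edgeR adjusted p = 0.0125), with no overlap between groups. In the list of snoRNA host genes and nuclear noncoding RNAs, 7 of 24 genes tested fell and none rose. Here and in the lists below, such counts are to be read against all genes tested, of which 1.47% fell and 0.553% rose. The 7SL RNAs of the signal recognition particle (RN7SL1 and RN7SL2) and the 7SK RNA, which holds the elongation factor P-TEFb inactive, were the other members that fell, with log2 fold changes of -0.28, -0.26 and -0.20. The median of the list was -0.16, against 0.00 for all genes tested.

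Small nucleolar and Cajal body RNAs guide the chemical modification of ribosomal and spliceosomal RNA. The class was looked at after its values had been seen, so its counts are descriptive. By the annotation, 46 snoRNAs were tested, of which 43 had a negative log2 fold change, and 8 (17.4%) fell, compared with 1.47% of protein-coding genes. No snoRNA rose. The class median was -0.32 in WT, -0.30 in K450R, -0.82 in K451R and -0.13 in K450RK451R, whereas that of protein-coding genes lay between 0.00 and 0.01 in each line. Only 17 of the 46 were lower in all 4 lines, and 1 was higher in all 4. The untreated K451R library stood apart for several of them. SNORD3A, the U3 RNA of ribosomal RNA processing, was at 1049 CPM there against 416 to 500 CPM in the other Veh libraries, and SNORD13 at 37.4 against 13.8 to 15.7 CPM. Without K451R, 3 of 44 snoRNAs fell and 33 had a negative log2 fold change, with a median of -0.30, whereas 7 or 8 fell when another line was left out. SNORA71D, which passed the test (-0.60), had 0.089 in K450R. Many snoRNAs lie inside other genes, though SNORD3A overlaps none in the annotation, and for those inside a host gene the reads of the host's intron and of the small RNA could be counted together.

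Among them, the Cajal body RNA SCARNA21 (chr17:7809440-7809578, plus strand) lies within CHD3. It was at 44.8, 46.5, 49.4 and 31.4 CPM without Dox and at 31.7, 29.5, 26.4 and 20.6 CPM with it, a log2 fold change of -0.67 ± 0.09 (SE, n = 4 lines, edgeR adjusted p = 5.43e-05). Only the untreated K450RK451R library kept the groups from being apart. SCARNA7, SCARNA13 and SNORA71A fell by 0.57, 0.40 and 0.56 on the log2 scale. SNORD116-19 (chr15:25331674-25331765, plus strand) fell by 1.08 (edgeR adjusted p = 0.0344) at a level of 1.63 to 5.78 CPM, and it is 1 of many similar copies that can share reads. Sequences of both families are given to show the short elements that define them. Capitals mark the ACA box near the 3′ end of SCARNA21, and the C and D boxes of SNORD116-19.
SCARNA21: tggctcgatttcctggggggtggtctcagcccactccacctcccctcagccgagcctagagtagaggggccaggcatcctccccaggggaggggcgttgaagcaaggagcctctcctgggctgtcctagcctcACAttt
SNORD116-19: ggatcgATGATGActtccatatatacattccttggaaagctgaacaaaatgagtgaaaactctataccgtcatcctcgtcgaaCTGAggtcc

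Transcripts for splicing regulators fell as well. CLK kinases and L-type cyclins act on SR proteins and are known for abundant transcripts that keep introns. Of 29 genes in the list of CLK kinases and splicing factors, 9 fell and none rose, and 27 had a negative log2 fold change. Over all genes tested 1.47% fell, and 48.8% had a negative log2 fold change. The list's median was -0.21, and it was negative in every line (-0.20 in WT, -0.22 in K450R, -0.32 in K451R and -0.17 in K450RK451R).

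CCNL1, which encodes cyclin L1, was at 74.7, 70.4, 70.4 and 54.4 CPM without Dox and at 49.6, 50.8, 39.1 and 38.2 CPM with it. The groups did not overlap, and the log2 fold change was -0.61 ± 0.08 (SE, n = 4 lines, edgeR adjusted p = 2.32e-05). CLK1 fell by 0.57 on the log2 scale, with the smallest line value in WT (-0.26). DDX39B, an RNA helicase for splicing and export, and LUC7L3, a factor linked to the U1 particle, fell by 0.50 and 0.47 without overlap of the groups. HNRNPA1, CLK3 and SRSF4 fell by 0.37, 0.31 and 0.30. CCNL2 passed the test with a log2 fold change of -0.39 but was not shared, because it was at 48.5 CPM without Dox and 51.4 CPM with Dox in K450RK451R.

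**Figure D2:**
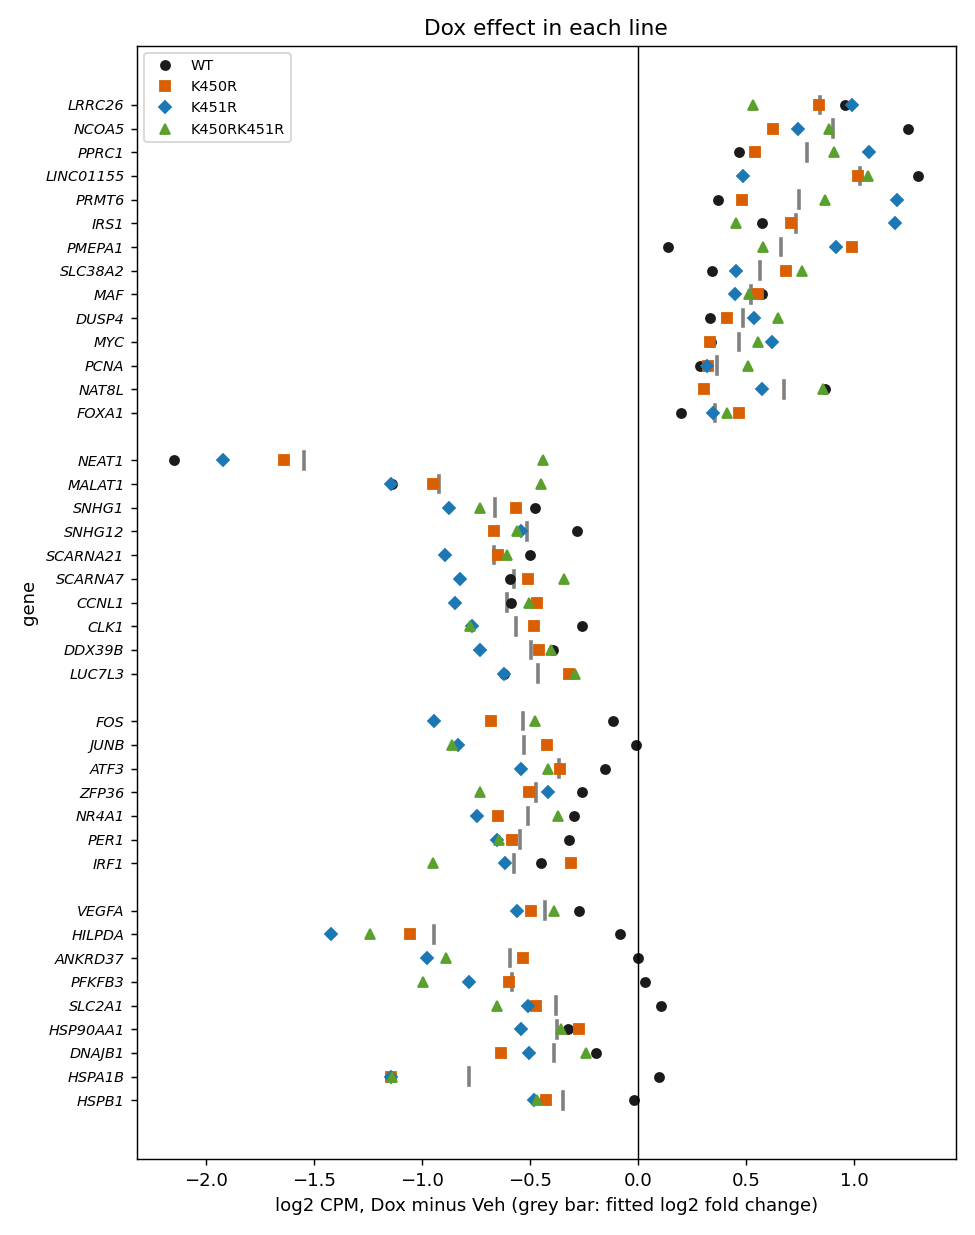
Difference in log2 CPM between Dox and Veh in each line (1 marker per line) for 40 genes, with the fitted log2 fold change as a grey bar. The genes at the top and the nuclear RNA and splicing genes have all 4 markers on 1 side of 0, whereas in the hypoxia and heat shock group the WT marker often lies at 0.

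Immediate-early genes encode transcription factors and feedback regulators that cells induce within minutes of a growth or stress signal. Of 23 such genes tested, 10 fell and 2 rose, beside 1.47% and 0.553% of all genes, and the median log2 fold change was -0.27. The line medians ran from -0.12 in WT to -0.48 in K450RK451R. FOS was at 185, 120, 74.5 and 45.7 CPM without Dox and at 170, 74.7, 38.6 and 32.8 CPM with it (WT, K450R, K451R and K450RK451R). The lines thus differed more from each other than the treatments did, and WT changed least. The log2 fold change of FOS was -0.53 ± 0.09 (SE, n = 4 lines, edgeR adjusted p = 0.00057).

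JUNB fell by 0.53 on the log2 scale, with a WT value of -0.01, and DUSP5, a nuclear phosphatase for ERK, fell by 0.68. ATF3, a stress-induced factor, and ZFP36, which promotes the decay of AU-rich messengers, fell in every line, by 0.37 and 0.47 on the log2 scale. The zinc finger factors KLF10 and KLF6 and the AP-1 subunit JUN fell by 0.45, 0.43 and 0.27. DUSP1 passed the test (-0.51) but was higher with Dox in WT, at 511 against 578 CPM. DUSP4, another MAP kinase phosphatase, and MYC went the other way. DUSP4 was at 130, 130, 163 and 120 CPM without Dox and at 164, 173, 236 and 188 CPM with it, a log2 fold change of 0.48 ± 0.06 (SE, n = 4 lines, edgeR adjusted p = 1.88e-05) without overlap of the groups.

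Promoters of immediate-early genes often hold sites for the cAMP-responsive factor CREB. The letters TGACG were searched for, on both strands, in RefSeq promoters of 300 bases (250 before to 50 after the start, GRCh38.p14), of which 27305 were read and 25% held a match. A promoter was found for 8 of the 10 members that fell, and 5 of these (FOS, JUN, JUNB, IER2 and DUSP1) held a match. Of all immediate-early genes tested, 9 of the 17 with a promoter held one (52.9%), the 5 included. For the 140 of 208 lower genes with a promoter the share was 41.4%, and for the 58 of 78 higher genes it was 32.8%. The full palindrome TGACGTCA, which contains the shorter motif, was in 6.43% of promoters of lower genes and 1.98% of all promoters, and the CArG box in 3.57% and 1.29%. The hypoxia core ACGTG was in 25.7% against 21.6%, and the heat shock core GAANNTTC in 5.71% against 6.87%. The latter was in 3 of the 5 promoters of heat shock genes that fell and in 6 of 16 over all heat shock genes tested (37.5%). The 27305 promoters were not limited to the 14105 genes tested. A share over the genes tested, or over genes of like count, was not computed. The shares above therefore cannot be read as enrichment over expressed genes. Such matches are descriptions and not binding sites. The 150 bases before the start of FOS (chr14:75278678-75278827, plus strand), JUNB (chr19:12791336-12791485, plus strand) and IER2 (chr19:13150261-13150410, plus strand) are shown from RefSeq on GRCh38.p14, with TGACG or its complement in capitals.
FOS: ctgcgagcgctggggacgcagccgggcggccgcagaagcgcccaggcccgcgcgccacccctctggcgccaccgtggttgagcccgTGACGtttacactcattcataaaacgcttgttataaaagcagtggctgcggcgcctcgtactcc
JUNB: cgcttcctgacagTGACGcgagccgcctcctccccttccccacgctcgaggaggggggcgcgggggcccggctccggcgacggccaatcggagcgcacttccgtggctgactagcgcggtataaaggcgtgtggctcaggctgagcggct
IER2: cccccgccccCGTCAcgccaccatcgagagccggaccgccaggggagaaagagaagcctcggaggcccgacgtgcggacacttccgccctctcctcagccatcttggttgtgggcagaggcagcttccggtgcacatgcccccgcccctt

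Several hypoxia-responsive genes were lower with Dox, by amounts that varied between lines. Of 36 HIF targets tested, 9 fell and none rose, beside 1.47% and 0.553% of all genes. The list's median was -0.15, with line medians of -0.01 in WT, -0.04 in K450R, -0.25 in K451R and -0.26 in K450RK451R. A difference between lines was not tested, since each has 1 library per treatment. VEGFA, the vascular growth factor, fell in all of them. Its levels were 1760, 1558, 1331 and 1193 CPM without Dox and 1456, 1104, 903 and 912 CPM with it, a log2 fold change of -0.43 ± 0.06 (SE, n = 4 lines, edgeR adjusted p = 3.18e-05). WSB1, a ubiquitin ligase component, fell in every line too (-0.33).

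Other genes had values near 0 in WT. HILPDA, a lipid droplet protein that was named for the size of its fall, had line values of -0.09, -1.06, -1.42 and -1.24. ANKRD37, PFKFB3 (a regulator of glycolytic flux) and SLC2A1 (the glucose transporter GLUT1) had fitted log2 fold changes of -0.59, -0.58 and -0.38, with WT values of 0.00, 0.03 and 0.10. Among 25 glycolysis genes, ENO2, SLC2A1 and HK2 fell. ENO2, an enolase that also marks neuroendocrine cells, was even across lines, with values of -0.33, -0.41, -0.38 and -0.43.

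Of 19 heat shock genes tested, 5 fell and none rose, beside 1.47% and 0.553% of all genes. HSP90AA1, the inducible form of HSP90, fell in all 4 lines from 150, 141, 145 and 170 CPM to 119, 116, 99.3 and 132 CPM, a log2 fold change of -0.37 ± 0.06 (SE, n = 4 lines, edgeR adjusted p = 0.000381) with no overlap. HSPA1B, an HSP70 gene with a near-identical copy that can share its reads, had values of -1.15, -1.14 and -1.14 in the mutants and 0.09 in WT. HSPB1 had -0.02 in WT and -0.42 to -0.48 in the mutants. HSPA6, a strictly inducible HSP70, was at 15.5 CPM without and 16.1 CPM with Dox in WT, and went from 2.84 to 7.54 CPM down to 0.107 to 1.14 CPM in the mutants, where the lowest library held 1 count.

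Mitochondrial transcripts did not share a direction. Of 13 mitochondrially encoded genes tested, 4 fell, but the line medians were -0.57 in WT, 0.57 in K450R, -0.80 in K451R and -0.72 in K450RK451R. The mitochondrial share of all counts was 12.0% to 14.4% without Dox and 8.04% to 13.7% with it, lower in 3 of 4 lines and higher in K450R (exact sign-flip test over lines, two-sided p = 0.25). MT-RNR1, the small ribosomal RNA of mitochondria, was the only one of the 13 that was lower in all 4 lines, from 14160, 13228, 12442 and 12718 CPM to 9565, 11790, 7737 and 6663 CPM. Its groups did not overlap, and the log2 fold change was -0.59 ± 0.07 (SE, n = 4 lines, edgeR adjusted p = 1.91e-05). MT-RNR2, MT-CO1 and MT-CO3 fell in the fit (-0.39, -0.57 and -0.42), whereas K450R had 0.20, 0.11 and 0.22.

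None of the 72 nuclear genes of respiratory complexes, the 74 mitochondrial ribosomal proteins or the 20 genes of the mitochondrial stress response passed the adjusted threshold in edgeR's test, with list medians of -0.01, 0.01 and 0.00. The members with the lowest unadjusted p were NDUFS3 (log2 fold change of -0.19), ATP5G3 (0.16), MRPL9 (-0.21), MRPL41 (0.18), TFB2M (0.30) and CLPP (0.13). In the ATF4 and amino acid response, which cells use when amino acids or mitochondrial function are short, 2 of 40 genes rose and 5 fell. Over all genes tested 0.553% rose and 1.47% fell. SLC38A2, a transporter of neutral amino acids, was at 39.1, 37.7, 47.8 and 46.9 CPM without Dox and at 49.6, 60.7, 65.3 and 79.4 CPM with it. All 4 lines rose and the groups did not overlap (log2 fold change 0.56 ± 0.08, SE, n = 4 lines, edgeR adjusted p = 0.000103). PSAT1, of serine synthesis, rose by 0.29, and the stress factors DDIT3 and NUPR1 fell by 0.28 and 0.34 with values of 0.02 and 0.03 in WT.

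**Figure D3:**
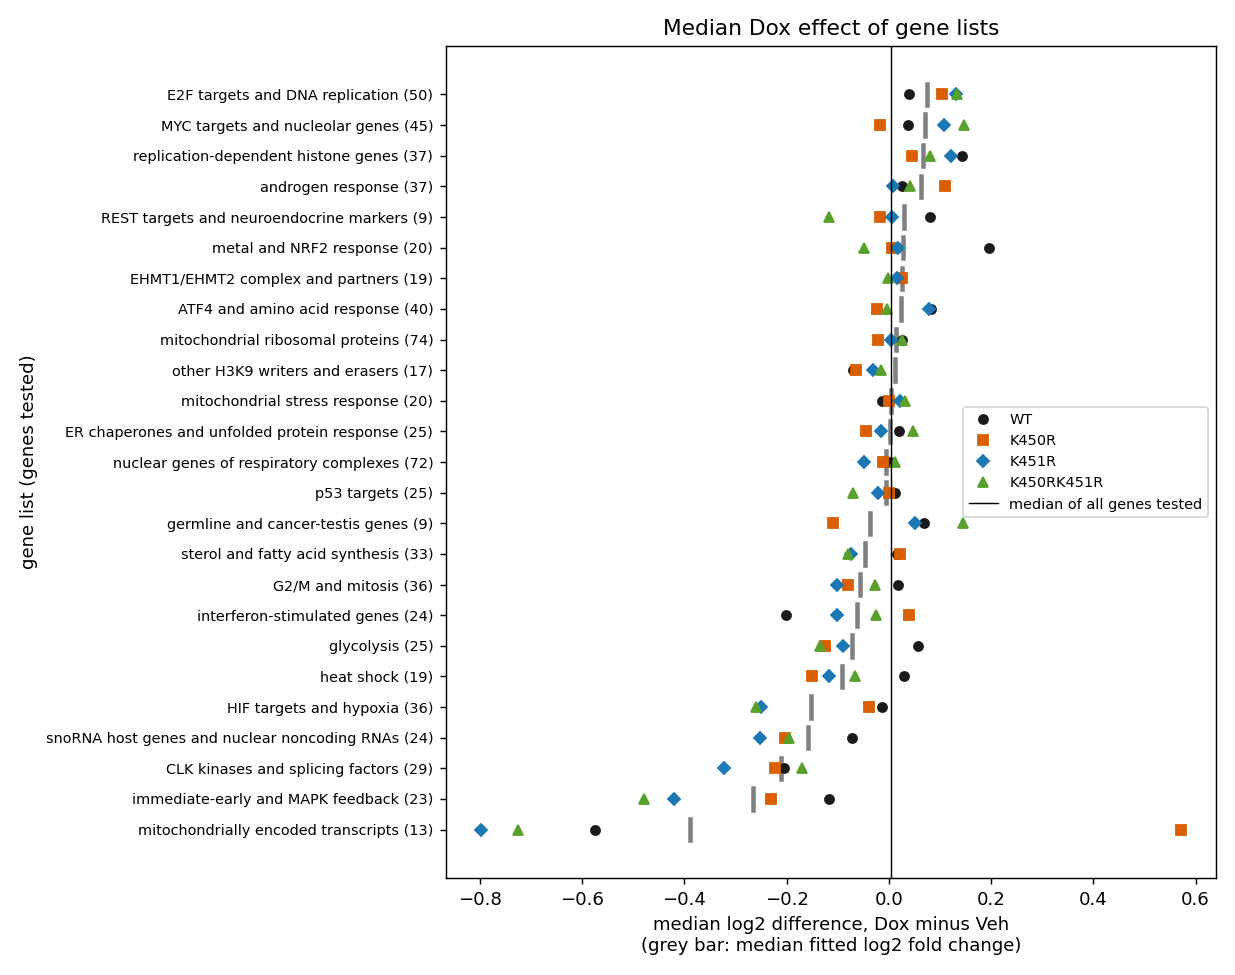
Median log2 difference between Dox and Veh in each line (markers) and median fitted log2 fold change (grey bars) of 25 gene lists, with the number of genes tested in parentheses and the median of all genes as a vertical line. The splicing, snoRNA host and immediate-early lists lie to the left in all 4 lines, and the mitochondrially encoded transcripts lie to the right in K450R alone.

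The genes with the largest rises belonged to no single list. LRRC26, an auxiliary subunit of BK potassium channels, was at 8.78, 9.13, 7.42 and 8.62 CPM without Dox and at 17.2, 16.4, 14.9 and 12.5 CPM with it, a log2 fold change of 0.84 ± 0.14 (SE, n = 4 lines, edgeR adjusted p = 0.00108). Every Dox library was above every Veh library. The gene lies at chr9:140063210-140064503, on the same chromosome arm as EHMT1 (chr9:140513444-140764468).

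PRMT6, an arginine methyltransferase, was at 11.2, 11.7, 10.6 and 10.7 CPM without Dox and at 14.5, 16.4, 24.5 and 19.5 CPM with it. The groups were apart, with a log2 fold change of 0.74 ± 0.14 (SE, n = 4 lines, edgeR adjusted p = 0.00283). NCOA5, a nuclear receptor coregulator, PTCD1, a mitochondrial pentatricopeptide protein, and NAT8L, which makes N-acetylaspartate, rose by 0.90, 0.94 and 0.67 on the log2 scale without overlap of the groups, at levels below 11 CPM. On the same strand PTCD1 overlaps ATP5MF and the read-through gene ATP5MF-PTCD1, so that its counts are uncertain.

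C1orf116, PPRC1 (a coactivator related to PGC-1) and IRS1 (the adaptor of the insulin and IGF1 receptors) rose in every line by 0.76, 0.78 and 0.73 in the fit, although their groups overlapped. At low counts, LINC01155, SLC25A32, RPUSD2 and CLCN4 rose by 1.03, 0.79, 0.70 and 0.77, of which CLCN4 had 0.03 in K451R. The pseudogene CTD-2328D6.1, which resembles ribosomal RNA, passed the test (0.95) on the strength of K450R, where it went from 103 to 687 CPM.

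Androgen-responsive genes contributed rises and no falls. Androgen signalling drives the luminal programme that LNCaP cells keep. In the androgen response list 7 of 37 genes rose, beside 0.553% of all genes, while its median was only 0.06. PMEPA1, an inhibitor of TGF-β signalling, had line values of 0.14, 0.99, 0.92 and 0.58. MAF, a basic leucine zipper factor, was even across lines (0.57, 0.55, 0.45 and 0.51).

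TMPRSS2, a serine protease gene, was at 1184, 1018, 1182 and 1070 CPM without Dox and at 1273, 1202, 1431 and 1276 CPM with it. The groups did not overlap, although the log2 fold change was only 0.22 ± 0.05 (SE, n = 4 lines, edgeR adjusted p = 0.0257). SLC45A3 and PPAP2A rose by 0.23 and 0.32, with WT values of 0.00 and 0.08.

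All 12 luminal markers used to check the cell type were expressed, and 5 of them rose, among them FOXA1, SLC45A3 and TMPRSS2. Their summed level was 12318 to 13052 CPM without Dox and 12876 to 13558 CPM with it, higher in 4 of 4 lines (exact sign-flip test over lines, two-sided p = 0.125). Basal and leukocyte markers had no gene that passed the count filter, with at most 18 and 3 counts for any of the 4 and 5 genes in a library. Of markers of stroma, of endothelium and of the prostate line PC-3, 1, 1 and 2 genes passed the filter, and none passed the test. The summed stroma markers were at 34.2 to 41.3 CPM without Dox and 31.2 to 38.3 CPM with it, lower in 4 of 4 lines, and the summed PC-3 markers at 64.9 to 82.0 CPM and 73.2 to 86.5 CPM, higher in 4 of 4. The part of these shifts in the results was not tested.

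For genes of proliferation the counts are to be read against the 2.03% of all genes that passed. PCNA, the sliding clamp of DNA polymerase, was the only one of 50 E2F targets to pass. It rose from 51, 59.7, 71.0 and 68.0 CPM to 62.2, 74.7, 88.5 and 96.7 CPM, a log2 fold change of 0.36 ± 0.07 (SE, n = 4 lines, edgeR adjusted p = 0.00256). The list's median was 0.07, and none of 36 mitotic genes passed (median -0.06, lowest unadjusted p for TOP2A and TPX2 at -0.17 and -0.16).

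Among 37 replication-dependent histone genes, HIST1H2BO and HIST1H1B rose by 0.29 and 0.22 and none fell. In the list of MYC targets and nucleolar genes, 3 of 45 rose (PPRC1, MYC and ODC1) and 1 fell (HK2). MYC was at 106, 114, 135 and 142 CPM without Dox and at 134, 144, 207 and 209 CPM with it, a rise in each line (0.46 ± 0.06, SE, n = 4 lines, edgeR adjusted p = 3.19e-05). ODC1, the first enzyme of polyamine synthesis, rose by 0.22.

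Counts of partners and classical targets of EHMT1 that passed the test are too small to be set apart from the 2.03% of all genes. Apart from EHMT1, none of the 19 genes tested for the EHMT1/EHMT2 complex passed, and EHMT2 had a log2 fold change of -0.01 ± 0.06 (SE, n = 4 lines). The lowest unadjusted p among the partners belonged to CBX1, an HP1 protein (-0.17, edgeR adjusted p = 0.225). Among 17 other writers and erasers of H3K9 methylation, KDM3A, an H3K9 demethylase that is also a HIF target, fell by 0.32 without overlap of groups (edgeR adjusted p = 0.00548), and KDM4C had -0.24 (edgeR adjusted p = 0.105).

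None of the 9 germline genes that passed the count filter had an adjusted p under 0.05. TDRD1 had the lowest unadjusted p. It was higher with Dox in 4 of 4 lines, with a log2 fold change of 1.33 at a mean of 14.8 counts (edgeR adjusted p = 0.114), and MAGEA1 had -0.31. Of 9 REST targets and neuroendocrine markers tested, ENO2 fell, and L1CAM had -0.46 (edgeR adjusted p = 0.422).

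In 5 further lists, 5 genes passed in all. INSIG1, FDFT1 and SREBF1 fell among 33 genes of sterol and fatty acid synthesis (-0.32, -0.20 and -0.20). IRF1 fell among 24 interferon-stimulated genes (-0.57), with IRF7 at -0.39 (edgeR adjusted p = 0.0772). TFRC, the transferrin receptor, fell among 20 genes of the metal and NRF2 response (-0.26), with SLC7A11 at 0.23 (edgeR adjusted p = 0.128). None of 25 p53 targets or 25 genes of the unfolded protein response passed, where the lowest unadjusted p belonged to MDM2 (0.15), RRM2B (-0.14), CREB3L2 (-0.24) and HSP90B1 (-0.15).

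The siRNA libraries of the series, in which LNCaP cells received 20 nM of siRNA against EHMT1 (siEHMT1, n = 2) or a control (siNTC, n = 2), share no sample with the Dox comparison and no Dox was used. They therefore give a second readout of the same genes. EHMT1 itself fell in them by 1.52 on the log2 scale (edgeR adjusted p = 2.34e-07). Of the 282 other called genes that were tested in both, none passed an adjusted p under 0.05 with siEHMT1 (background 0.125%) by edgeR, and 49 (17.4%) had an unadjusted p under 0.05 (background 9.01%). Of these 49, 37 moved against their direction with Dox and 12 moved with it. The called genes had higher counts in the Dox comparison than all genes tested (median 674 against 194). A background of genes of like count was not computed.

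Over all called genes, 129 of 205 that fell with Dox were higher with siEHMT1 (62.9%, against 49.0% of all genes), and 49 of 77 that rose were lower (63.6%, against 51%). NEAT1 had a log2 fold change of 0.57 ± 0.20 (SE, n = 2 against 2, edgeR adjusted p = 0.349) with siEHMT1, MALAT1 0.49 ± 0.21 (edgeR adjusted p = 0.482) and SNHG12 0.56 ± 0.16 (edgeR adjusted p = 0.222). The 36 snoRNAs tested there had a median of 0.35. SLC38A2, MYC and DUSP4 had -0.33, -0.28 and -0.22. These examples are not the whole picture: CXCR4, KDM3A and HILPDA, which fell with Dox, had -0.87, -0.29 and -0.11 with siEHMT1. MAF (0.37) and ENO2 (-0.48) had the sign they had with Dox. The HIF target list had a median of -0.07 with siEHMT1, against -0.004 for all genes. This value was not particular to it, since the mitochondrial stress and unfolded protein lists had -0.07 and -0.06. The immediate-early and heat shock lists had -0.04 and -0.03.

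**Figure D4:**
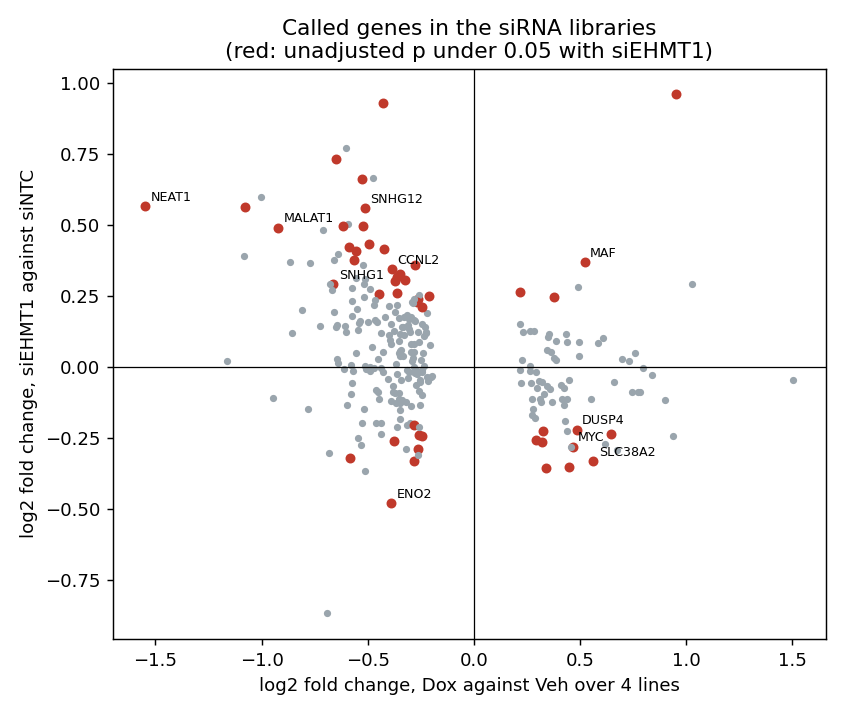
Log2 fold change of called genes with siEHMT1 against siNTC (vertical axis) beside that with Dox against Veh (horizontal axis), with 1 point per gene and red for an unadjusted p under 0.05 with siEHMT1. EHMT1 and CTD-2328D6.1 are left out. More points lie in the upper left and lower right, and no gene shown passed an adjusted p under 0.05 with siEHMT1.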

How the data were processed

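Total RNA of 16 stable-line and 4 siRNA samples was sequenced from stranded libraries. Per the labels, the submitters' processing notes name FastQC 0.11.9, STAR 2.7.2, featureCounts 1.6.4 and hg19 (GRCh37). The authors deposited raw read counts per Ensembl gene (57773 genes), without normalization. Whether strand was used in counting is not given in the sources used here, so overlapping and antisense genes may share reads.

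Columns were matched to samples by name, and the 2 columns of a condition were summed. In R 4.3.3 with edgeR 4.0.16, counts were TMM-scaled, filtered with filterByExpr by treatment (14105 genes) and tested by quasi-likelihood with line as a block and Benjamini-Hochberg adjustment. The pairing comes from the cell line. Deviations of the Dox and Veh library of a line from their group means correlated across genes with r of 0.07 to 0.18, and for K450R the correlation with another line was as high (0.077 against 0.073). Line differences are log2 CPM with a prior count of 2. A level of 3 counts, taken as the floor, was 0.242 to 0.356 CPM, which covers counting error only. On counts simulated for the Dox comparison over 14105 genes, 64.6% of changes of 0.5 and 89.4% of changes of 1 (log2) were recovered, with 3.73% false calls. The simulated counts used the dispersions estimated in the fit and the same change in every line. They therefore give no measure of false calls where lines differ, as they do in the data.

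The genes named were EHMT1, the 15 largest rises and falls among called genes with 1 direction in all lines and a mean count of at least 20, up to 6 called members of each of 25 gene lists, and otherwise the 2 with the lowest p. Other genes, among them the snoRNAs, FOXA1, IER2, JUN and genes outside the lists, were named after their values were seen. Some genes that met the rule are not reported here. The members and lists were chosen with earlier results of these data known. Positions are from GENCODE 44 on GRCh37, in which 55538 identifiers were found. Alternatives were DESeq2 1.42.0, limma-voom (limma 3.58.1), other scalings, filters and blocks, single columns, and leaving out each line. The siRNA fit, the newer edgeR method and the promoter search were added after the data were seen.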

Additional observations from a re-analysis of the deposited data

Results flagged for a closer look

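The 4 within-line changes (Dox minus Veh, log2 CPM) of each named gene and library measure were screened for 1 line that stood far from the other 3. By chance about 1 in 20 such groups is marked. Among all 14105 genes 5.01% were, and among the 286 called genes 8.74%, where WT was the line apart for 17 of 25 genes. Of the 105 named genes, 8 were marked. Whether this is more than the chance rate was not tested.

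WT stood apart for 4 stress genes. Its change was 0.094 for HSPA1B against -1.15 to -1.14 in the mutants, -0.018 for HSPB1 against -0.48 to -0.42, 0.028 for NUPR1 against -0.49 to -0.44, and 0.050 for DDIT4 against -0.41 to -0.36.

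K450RK451R stood apart for 4 genes. EHMT1 rose by 2.90 there against 3.32 to 3.38 in the other lines. CCNL2 was at 0.083 against -0.57 to -0.52. PCNA rose by 0.51 against 0.29 to 0.32, and HIST1H2BO by 0.48 against 0.20 to 0.24.

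K450R stood apart in the mitochondrial share of all counts, which went up by 1.68 percentage points against changes of -4.22 to -3.22 in the other lines. The share of the mitochondrial ribosomal RNAs behaved alike, with 1.66 against -4.19 to -3.20.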

How the results depend on the processing

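The number of genes past the threshold depended on the fit, while none of the 286 genes took the opposite sign in an alternative that tested it. Against 286 genes (78 higher and 208 lower), DESeq2 with the line block called 137 (23 higher, 114 lower), of which 136 were shared. Without a filter on low counts 146 genes were higher, because more genes were tested. No replicate block, that is the fit without line, left 4 genes (1 higher and 3 lower). The cause was not tested. The 16 unsummed columns with a replicate block of line and column number gave 1867 (852 higher, 1015 lower), since columns that differ only by counting noise then count as replicates. Either column alone gave 46 and 49 higher genes. Leaving out each line in turn gave 97 to 472 genes in all, 18 to 160 higher and 79 to 312 lower: 472 without WT, 114 without K450R, 97 without K451R and 193 without K450RK451R. EHMT1 kept its call throughout, at 3.18 to 3.35. Limma-voom, the newer edgeR method, RLE and upper-quartile scaling, library sizes without mitochondrial and top genes, and a filter of 1 CPM called 275 to 296 genes. Of 1645 values of named genes under the alternatives, 285 lost the call and 19 gained it. Library measures from single columns and the count of genes with 1 direction in all lines stayed close to their values. The legacy edgeR method is the installed default and gives no separate value. With 4 lines, 1 per construct, and no Dox-treated line without an insert, the p-values speak only for these lines. They rest on a variance moderated over genes, with 23.84 prior and 3 residual degrees of freedom. A gene whose lines differ widely, such as HSPA1B (edgeR adjusted p = 0.000765), can therefore still pass.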

Other observations

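Several genes outside the lists passed in every fit that left out 1 line, and they were picked here after their values were seen. ELF3, an epithelial ETS factor, went from 414, 321, 244 and 200 CPM without Dox to 343, 180, 143 and 116 CPM with it (WT, K450R, K451R and K450RK451R), a log2 fold change of -0.66 (edgeR adjusted p = 1.98e-06, lower in 4 of 4 lines). PER1, a negative limb of the circadian clock, went from 141, 117, 94.9 and 94.9 CPM to 113, 78.1, 60.3 and 60.7 CPM (-0.55, edgeR adjusted p = 1.36e-05, lower in 4 of 4 lines). NR4A1, an orphan nuclear receptor, and GADD45B, a stress sensor, fell by 0.51 and 0.64 on the log2 scale, with WT values of -0.30 and -0.10. FAM193B fell evenly, with line values of -0.65, -0.97, -0.60 and -0.67 and no overlap between groups.

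EFNB2, an ephrin ligand, rose in the fit (0.65, edgeR adjusted p = 0.00138) with 0.02 in WT and 0.79 to 0.91 in the mutants. H2AFX, the histone variant that is phosphorylated at DNA breaks, rose in every line by 0.16 to 0.55. LTB4R, a leukotriene receptor, and ANO9, a member of the anoctamin family, fell by 0.81 and 1.16 without overlap of the groups, at levels under 10 CPM. CXCR4, a chemokine receptor, had line values of -0.08, -0.50, -1.09 and -1.29.

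EIF4A1 was listed among the largest falls (-1.08), but at 2.12 to 18.1 CPM, and on the same strand it overlaps the read-through gene SENP3-EIF4A1 and small nucleolar RNAs such as SNORA48, so that its counts are uncertain. ENO1-IT1 fell by 1.62 at 0.533 to 7.60 CPM, with -0.08 in K450RK451R.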
